A study of Oryza sativa with 6 samples.

Results

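The genes described here are 6 pathogenesis-related (PR) loci of rice: 4 neighbouring PR10 loci on chromosome 12 (Os12g0555000, Os12g0555100, Os12g0555200 and Os12g0555500), the PR1a locus Os07g0129200 on chromosome 7 and the PR1b locus Os01g0382000 on chromosome 1. They were chosen by locus number, with their Hg response in these arrays already known, and every array probe whose name begins with one of the loci was taken, which gave 10 probes of the 42477 on the array and 6 of its 29690 loci. All 6 loci had at least 1 probe, and 4 of them had 2. Roots of 6-day-old seedlings of the cultivar TN-67 received 25 µM Hg, the dose in the methods (the labels give the same figure in mM). RNA from Hg-treated roots was compared on 2-colour arrays with RNA from water-treated (control) roots. The short exposure pooled RNA from 1 h and 3 h of treatment, and the long exposure lasted 24 h, with 3 biological replicate arrays each. The Hg sample carried Cy5 and the control Cy3 on each array, so that a dye effect does not cancel. The root silicon channel gene OsNIP2;1 (Os02g0745100) was well above background in the control channel of 6 of 6 arrays.

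PR proteins are made by plants that meet pathogens, wounding or other stress. PR10 proteins are small intracellular proteins with a ligand-binding pocket, and several have ribonuclease activity. PR1 proteins are secreted and serve as markers of salicylic acid and jasmonate responses in rice leaves. The study's annotation describes Os12g0555200 as probenazole-inducible protein PBZ1. That name refers to induction by probenazole, a chemical that protects rice against blast fungus. The other PR10 members have no description in the sources used here, so which locus is the gene first given that name was not settled.

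Each array gave a log2 ratio of Hg over control per probe, and a gene was represented by its brightest probe. A gene was tested where a probe reached a processed signal of 100 in at least 1 channel of 1 array, and was called at a limma adjusted p under 0.05 with at least a 2-fold change. Between 28674 and 34927 spots per array and channel were well above background, and the log2 ratios of replicate arrays correlated at 0.91 to 0.92 across genes after short exposure and 0.88 to 0.93 after long exposure. Long replicate 3 stood apart from the other long arrays in the control channel of several members, and the members' 24 h means are also given without it.

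All 4 PR10 loci and PR1a had higher levels in Hg-treated than in control roots on each of the 3 arrays after 24 h, with mean log2 ratios from 2.56 for Os07g0129200 to 5.55 for Os12g0555000. After short exposure the 6 loci did not move as a block. Os12g0555000 and Os12g0555200 were already about 8-fold and 11-fold higher, PR1a was near the control level, and Os12g0555100 lay below it. Of the 5 members that passed the signal minimum, 2 were called up and 0 down after short exposure, when 11.6% of all tested genes were called up and 8.1% down (19.7% together). After 24 h, 5 of 5 were called up and 0 down, against 9.02% and 6.02% of all genes (15% together). The members were chosen for this response, so these counts are a description. The 6th, PR1b, stayed under the signal minimum.

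**Figure D1:**
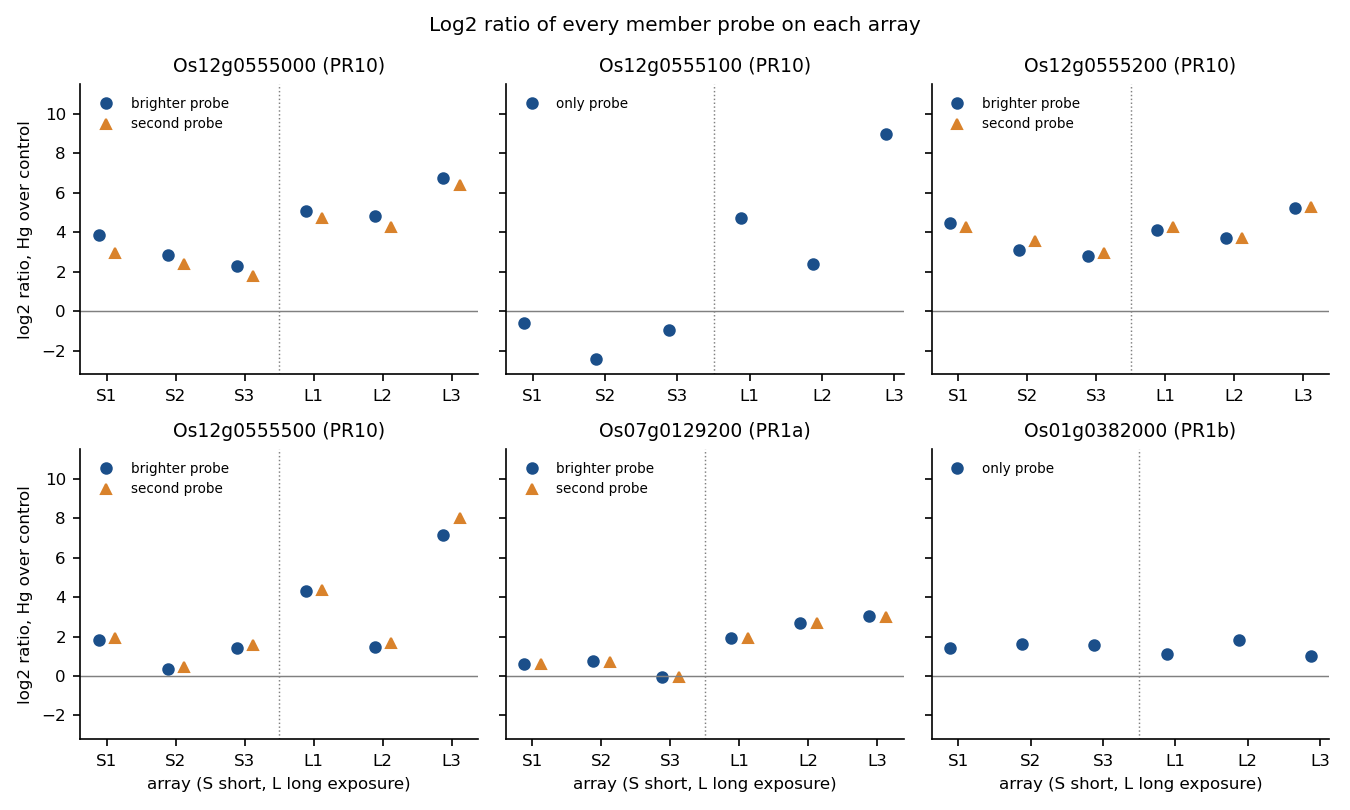
Log2 ratio of Hg over control (vertical axis) for each of the 10 member probes on each of the 6 arrays (horizontal axis, S for short and L for long exposure, numbers for replicates), with a panel per locus and a point per probe and array. The 3 long arrays lie above the 3 short ones for Os12g0555000, Os12g0555100 and Os07g0129200, and the highest values of the PR10 loci are those of long replicate 3.

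Os12g0555000, a PR10 gene, gave control signals of 354, 858 and 714 in short replicates 1 to 3 and of 1208, 1738 and 313 in long replicates 1 to 3. Its Hg signals were 5067, 6183 and 3497 after short exposure and 40505, 49192 and 34205 after 24 h. The Hg signal thus exceeded the control on every array, and the long Hg signals lay above all short ones. The log2 ratios were 3.84, 2.85 and 2.29 after short exposure (mean 2.99 ± 0.78, SD, n = 3, 7.97-fold) and 5.07, 4.82 and 6.77 after 24 h (mean 5.55 ± 1.06, 47.0-fold). The 2 exposures did not overlap, as for 33.2% of all genes with 6 values, which also had their lowest long ratio above their highest short ratio. The second probe of the locus gave lower ratios, with means of 2.36 ± 0.59 and 5.13 ± 1.12, and the 2 probes differed by at most 0.89 on any array. Without long replicate 3 the mean after 24 h was 4.95 (30.8-fold).

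Os12g0555200, annotated PBZ1, was read from low control signals. Its control signals were 28.7, 83.7 and 47.9 after short exposure and 111, 159 and 37.8 after 24 h, and its Hg signals were 641, 722 and 333 and then 1941, 2053 and 1402. Only short replicate 3 had a control signal that was not well above background. The log2 ratios were 4.48, 3.11 and 2.80 after short exposure (mean 3.46 ± 0.90, n = 3, 11.0-fold) and 4.13, 3.69 and 5.21 after 24 h (mean 4.35 ± 0.78, 20.4-fold), or 3.91 (15.1-fold) without long replicate 3. The 2 exposures overlapped, and the difference between them, 0.88 on the log2 scale with a 95% confidence interval from -0.43 to 2.20 by limma, was not called. It was called with normexp background correction (1.06), which took the short mean to 2.44, and with scaling between arrays (1.48). The second probe gave almost the same picture, with means of 3.60 ± 0.67 and 4.42 ± 0.78. Of the 5 tested members, this locus had the highest mean ratio after short exposure.

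Os12g0555100 was read by 1 probe. Its place was labelled x, whereas the other member probes were labelled as coding sequence and 3' untranslated region. The locus had Hg signals of 98.8, 14.9 and 11.3 after short exposure and control signals of 150, 80.6 and 22.3. Only short replicate 1 was well above background in both channels. The log2 ratios were -0.60, -2.44 and -0.98 (mean -1.34 ± 0.97, n = 3), negative on each short array and not called. After 24 h the Hg signals were 5362, 2714 and 2512, above every short value, while the control signals were 200, 515 and 4.96. The ratios were 4.75, 2.40 and 8.98 (mean 5.38 ± 3.34, 41.5-fold). The highest of these rests on a control signal that was not well above background, so that on long replicate 3 the Hg level was at least 133-fold above the control. Without that array the mean after 24 h was 3.57 (11.9-fold) and the locus was still called. The Hg level itself, scaled between arrays, was at least 52.9-fold higher at 24 h than after short exposure. After short exposure 2 of the 3 Hg signals were not well above background and were set no lower than the lowest detected level of their array. No slide held arrays of both exposures, so slide and exposure time cannot be told apart here.

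Os12g0555500 was well above background in both channels on every array. Its control signals were 1416, 1582 and 461 after short exposure and 721, 3334 and 80.7 after 24 h. Its Hg signals were 5062, 2014 and 1255 and then 14176, 9184 and 11496. The long Hg signals differed by 1.54-fold at most, and the long control signals by 41.3-fold. The log2 ratios were 1.84, 0.35 and 1.44 after short exposure (mean 1.21 ± 0.77, n = 3), which was not called, and 4.30, 1.46 and 7.15 after 24 h (mean 4.30 ± 2.85, 19.8-fold). The lowest long ratio lay under the highest short one. The second probe spread as widely, from 1.70 to 8.03 after 24 h. Without long replicate 3 the mean after 24 h fell to 2.88 (7.36-fold), and the locus was still called.

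The PR1a gene Os07g0129200 had control signals of 6666, 4680 and 6038 after short exposure and of 5779, 4025 and 2925 after 24 h. After short exposure its Hg signals were 10144, 7865 and 5824, and the log2 ratios of 0.61, 0.75 and -0.05 (mean 0.43 ± 0.43, n = 3) lay on both sides of 0. After 24 h the Hg signals were 22384, 26143 and 23771, each above every short value. The ratios of 1.95, 2.70 and 3.02 (mean 2.56 ± 0.55, 5.89-fold) did not overlap with the short ones. The 2 probes of the locus differed by at most 0.02 on any array. Of the 5 tested members this was the one whose ratios varied least between arrays at either exposure, and without long replicate 3 the mean was 2.33.

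The PR1b gene Os01g0382000 was too dim for a test. Its control signals ranged from 5.80 to 23.5 over the 6 arrays and were not well above background on any of them. Its Hg signals ranged from 12.5 to 50.9 and were well above background on 1 short array and 2 long arrays. The log2 ratios were all positive, 1.44, 1.62 and 1.59 after short exposure and 1.1, 1.81 and 0.99 after 24 h. On the arrays where the Hg signal was detected, it was at least 3.07-fold above the control in short replicate 2, at least 1.92-fold in long replicate 2 and at least 1.99-fold in long replicate 3. The other 3 arrays detected neither channel and give no bound. The ratios of the 2 exposures overlapped.

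The change of the ratio between exposures was called upward for 3 of the 5 tested members, Os12g0555000 (2.56 on the log2 scale, 95% confidence interval 1.1 to 4.02), Os12g0555100 (6.72, 2.90 to 10.5) and Os07g0129200 (2.12, 1.34 to 2.91). Without long replicate 3 they were 1.95, 4.91 and 1.89, still called. None of the 5 was called downward. Of all genes, 9.23% were called upward and 10.1% downward (19.4% together). For Os12g0555500 the difference was 3.09 (-0.14 to 6.33) and was not called, although leaving out long replicate 2 made it 4.52 and a call, and it was 1.67 without long replicate 3. All 3 long arrays lay on 1 slide that held no short array, so slide and exposure time cannot be told apart in these differences.

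The 2 channels behind the ratios behaved differently after 24 h. After Aquantile scaling between arrays, which gives each array the same distribution of mean log2 intensity, the SD of the log2 Hg level over the 3 long arrays was 0.28 for Os12g0555000, 0.73 for Os12g0555100, 0.31 for Os12g0555200, 0.44 for Os12g0555500 and 0.05 for Os07g0129200. The SD of the control level was 1.34, 3.53, 1.06, 2.72 and 0.59 for the same loci in that order. The 3.53 of Os12g0555100 includes a control signal not well above background on long replicate 3, so its size is uncertain. The median SD over all genes was 0.12 for the Hg level and 0.13 for the control level. The 4 PR10 loci lay above these medians in both channels. The control level was thus the more variable one for 5 of 5 members, and for 55.3% of the 21037 genes with 6 values in both channels. A control SD above 1 was seen for 4 of the 5 members, the 4 PR10 loci, against 0.951% of all genes, and an Hg SD above 1 for 0 members and 0.342% of genes. After short exposure the split was not seen: the control level was the more variable one for 3 of 5 members and 46.6% of genes. A control SD above 1 was then seen for 1 of 5 members and 2.46% of genes, and an Hg SD above 1 for 2 of 5 and 2.22%. The control level of short replicate 3 lay at least 1 log2 unit under both other short arrays for 2 members, Os12g0555100 and Os12g0555500. This held for 0.542% of all genes.

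**Figure D2:**
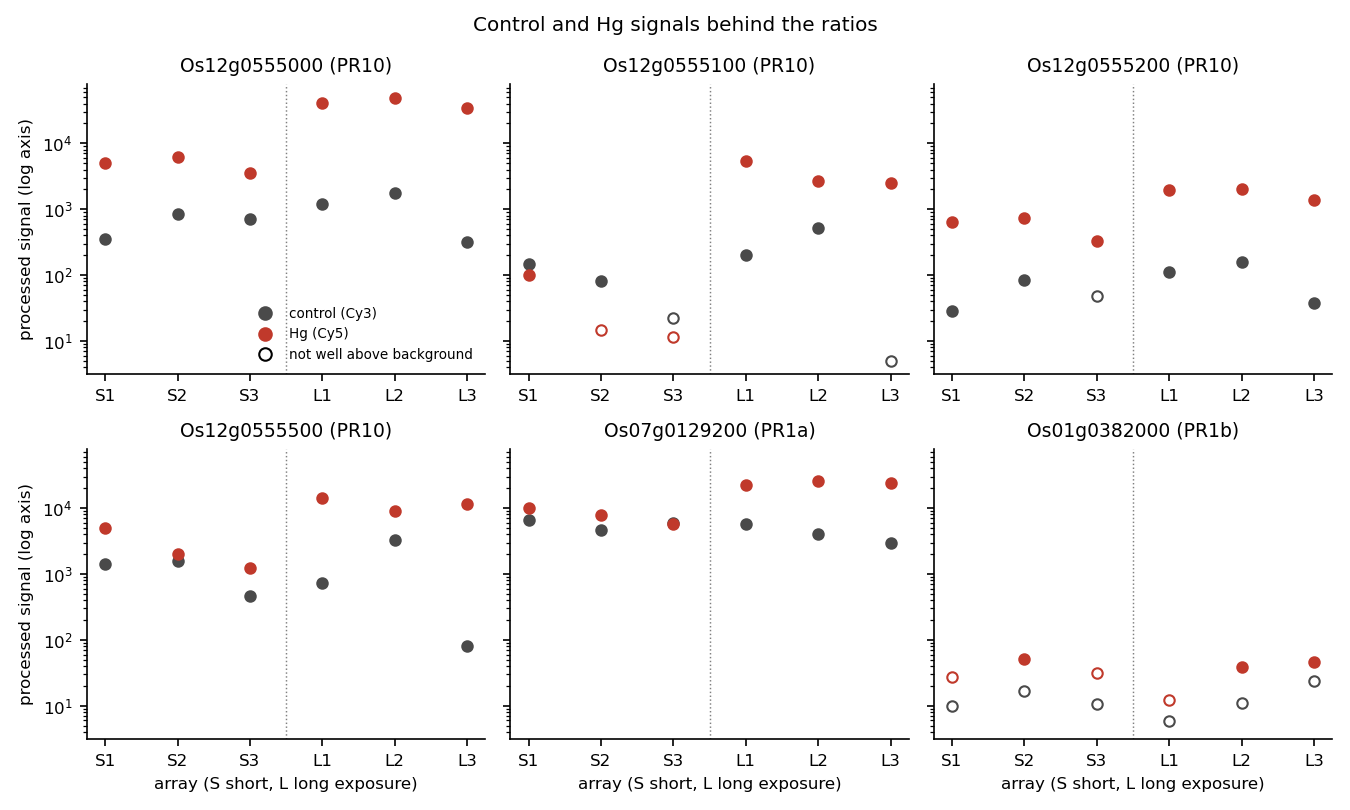
Processed signals of the control (Cy3, grey) and Hg (Cy5, red) channels on a log axis for the brightest probe of each of the 6 loci on each array. On the 3 long arrays the Hg signals of each PR10 locus differ by at most 2.13-fold. Their control signals drop on long replicate 3. Open points are not well above background.

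Long replicate 3 carried much of the spread of the long control levels. Its control level lay at least 1 log2 unit under both other long arrays for 4 of the 5 tested members, all of them PR10 loci, and for 0.894% of all genes (188 of 21037). The Hg level of the same array was low in this sense for 0 members. The same was seen for other genes of the lists below: for the neighbouring locus Os12g0555300, for 9 of 26 loci next to PR1a (6 distinct source sequences), for 5 of 50 β-1,3-glucanase family genes and for 2 of 15 chitinases. Without that array the spread did not vanish. Between long replicates 1 and 2 alone the control level differed more than 2-fold for 2 of 5 members, Os12g0555100 and Os12g0555500, against 1.84% of all genes. Between the same 2 arrays the Hg level differed more than 2-fold for 1 of 5 members, Os12g0555100, and for 378 of 21037 genes. In RNA from root tips, which hold many cell types, fewer cells with a transcript and less transcript per cell cannot be told apart, and the part of the plants, harvest or labelling in this difference was not tested.

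**Figure D3:**
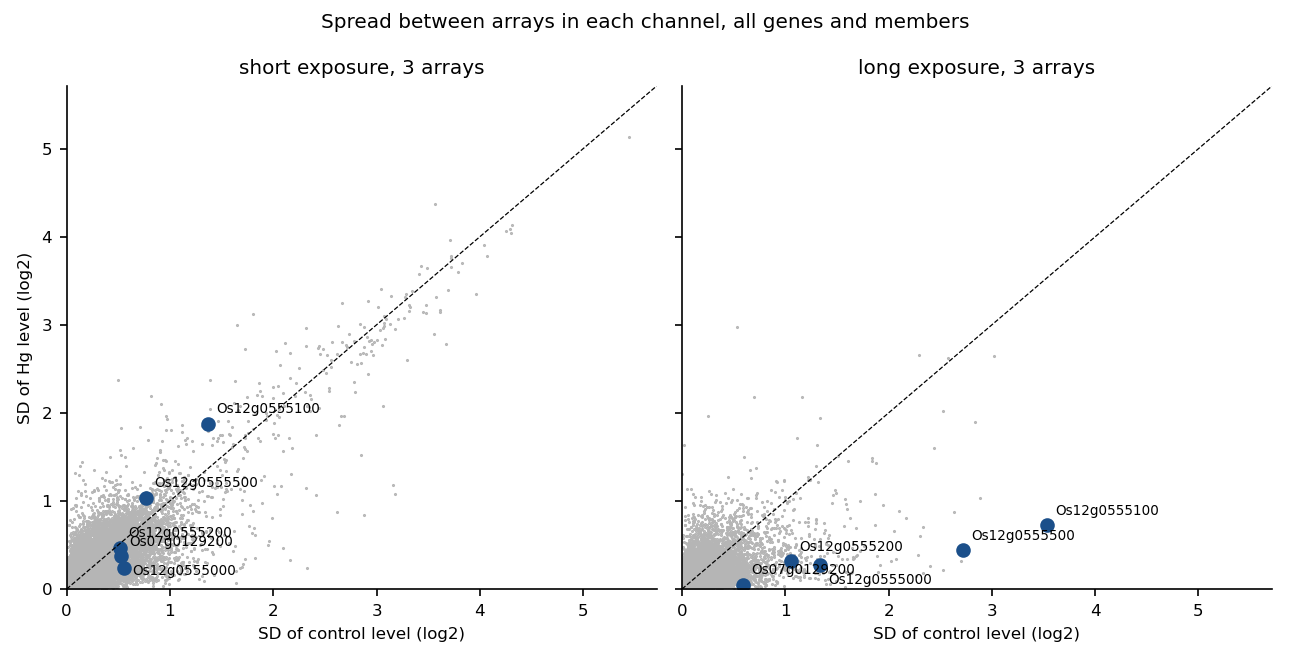
SD over the 3 arrays of an exposure of the log2 control level (horizontal axis) against that of the log2 Hg level (vertical axis), with a grey point per gene, the 5 tested members in blue and a dashed line where both are equal. After long exposure the 4 PR10 loci lie far to the right with control SDs of 1.06 to 3.53. After short exposure the members lie on both sides of the line, with an Hg SD of up to 1.88 for Os12g0555100. The 3.53 and 1.88 are both of that locus and include signals not well above background.

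The level in water-treated roots was also compared between exposures. It is the denominator of the ratios by which the members were known, so these values too are a description. The control level of long minus short arrays was 0.10 on the log2 scale for Os12g0555000 (95% confidence interval by limma -1.43 to 1.62), 0.15 for Os12g0555200 (-1.1 to 1.40) and -0.34 for Os12g0555100 (-4.29 to 3.60). It was -1.30 for Os12g0555500 (-4.25 to 1.65) and -0.79 for Os07g0129200 (-1.66 to 0.08). Without long replicate 3 these values were 0.86, 0.76, 1.67, 0.17 and -0.54 in the same order, so that the sign for Os12g0555100 and Os12g0555500 turned with that array. None of the 5 was called by limma with or without it. With all arrays, 3.72% of all genes were called higher and 7.27% lower (11% together). Also with all arrays, 0 of 5 had an unadjusted limma p under 0.05, a cut-off for which the share of all genes is not given here. The intervals of the PR10 loci are wide, so that a 2-fold difference in either direction was not detectable for any of the 4. All these control values are those of the brightest probes. With all arrays, the second probes gave -0.26 for Os12g0555000, where the sign turned, and 0.08 for Os12g0555200. They gave -0.89 for Os12g0555500 and -0.75 for Os07g0129200. The Hg level of the brightest probes was higher at 24 h than after short exposure by 6.30-fold for Os12g0555000 and 2.05-fold for Os12g0555200. It was higher by 3.47-fold for Os12g0555500 and 2.52-fold for Os07g0129200. The second probes gave 5.67-fold, 1.86-fold, 5.58-fold and 2.59-fold in the same order. In both channels slide and exposure time cannot be told apart. The share of all genes with such an Hg change is not given here.

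The loci numbered around the PR10 genes did not share their response, apart from 1. Of 5 other loci from Os12g0554500 to Os12g0556000 on the array, 4 were tested, with 2 called up and 1 down after short exposure and 1 up and 1 down after 24 h (medians 0.49 and 0.05). Os12g0555300, which stands between Os12g0555200 and Os12g0555500 and has no description in the sources used here, followed Os12g0555000 closely. Its Hg signals of 133998 to 159886 after 24 h stood against control signals of 993 to 6754. Its log2 ratios were 3.27, 2.62 and 1.92 after short exposure (mean 2.60 ± 0.67, n = 3, limma adjusted p = 0.0036) and 4.88, 4.57 and 7.08 after 24 h (mean 5.51 ± 1.37, adjusted p = 3.14e-04). It rose further between exposures, by 2.90 (adjusted p = 0.015). Without long replicate 3 the 24 h mean was 4.72 and the difference 2.12, both still called. Probes of near-identical neighbours may share transcripts, so the response of single loci in this cluster is uncertain.

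Outside the block the values were small or opposite. Os12g0554500 was just past the 2-fold limit after short exposure (1.01 ± 0.07, adjusted p = 8.82e-05) and was at -0.09 ± 0.10 after 24 h. Os12g0554800, annotated as polygalacturonase-like, an enzyme class that cuts pectin, fell by 1.20 and by 1.29 on the log2 scale (adjusted p = 8.10e-05 and 1.37e-04). Os12g0555600 lay at -0.03 ± 0.20 and 0.20 ± 0.08 and was not called at either exposure.

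The 26 tested loci from Os07g0124000 to Os07g0130000 around PR1a held 8 called up and 1 called down after short exposure and 17 called up and 0 down after 24 h, with medians of 0.88 and 1.97 against -0.13 and -0.06 over all genes. Called up were 30.8% and then 65.4% of these loci, against 11.6% and 9.02% of all genes. They are not 26 independent readings: 10 of them carry probes made from 3 source sequences that stand under several loci each, and the 26 loci rest on 19 distinct sources, 10 of which had a locus called up after 24 h. The 4 loci of 1 such source, Os07g0127100 among them, gave ratios between 4.14 and 4.20 after 24 h. Os07g0129300, the locus numbered next after PR1a, had a mean of 6.10 ± 2.33 after 24 h (adjusted p = 0.0010) with ratios of 4.50, 5.02 and 8.77, and of 1.28 ± 0.82 after short exposure, which was not called (adjusted p = 0.19). Its control signal was well above background on 2 of the 3 long arrays, and without long replicate 3 the 24 h mean was 4.76 (27.1-fold, adjusted p = 0.0012). Os07g0129800, annotated as a protein kinase, had means of 4.77 ± 0.37 and 3.84 ± 0.96 (adjusted p = 8.97e-05 and 2.99e-04), with the control well above background on 1 short and 2 long arrays. Around PR1b, only Os01g0381900 of 6 loci was tested, with -0.77 ± 0.10 after short exposure and 0.87 ± 0.24 after 24 h, under the 2-fold limit at both.

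**Figure D4:**
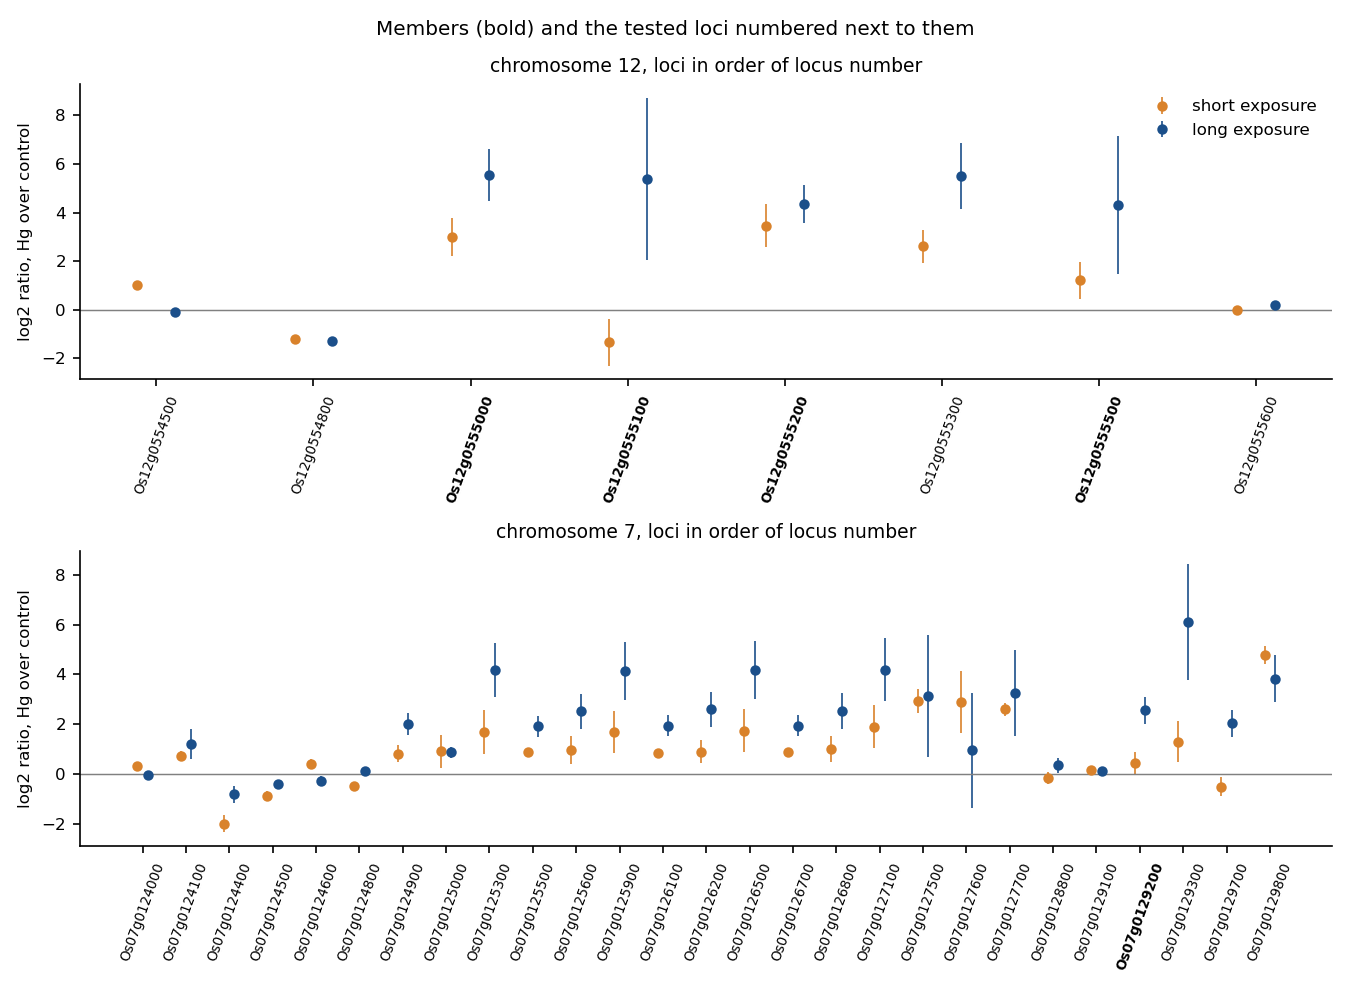
Mean log2 ratio of Hg over control (points) with the SD over 3 arrays (bars) for the tested loci in order of locus number on chromosome 12 (top) and chromosome 7 (bottom), short exposure in orange and long exposure in blue, members in bold. The high values on chromosome 12 span Os12g0555000 to Os12g0555500, with the loci on either side between -1.29 and 1.01, whereas on chromosome 7 most loci from Os07g0124900 to Os07g0127700 lie above 0.

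Other PR proteins annotated in the study's list of Hg-responsive genes, which was drawn from these arrays and so is no independent evidence of direction, moved in more than 1 way. Of 6 such loci, 5 were called up and 1 down after short exposure, and 4 up and 0 down after 24 h, with medians of 2.31 and 2.47. Os07g0127500, annotated as a PR-1a precursor, had means of 2.92 ± 0.49 and 3.13 ± 2.45 (limma adjusted p = 0.017 and 0.014), the latter from ratios of 1.93, 1.51 and 5.94. Its control was well above background on 2 of 3 arrays at each exposure, and without long replicate 3 the 24 h mean was 1.72 (3.29-fold, adjusted p = 0.0044). Os07g0127700, annotated as pathogenesis-related protein 1, had 2.59 ± 0.27 and 3.25 ± 1.74 (adjusted p = 0.0068 and 0.0031). These 2 loci were up early, unlike PR1a, and the highest long value of each came from long replicate 3, without which the mean of Os07g0127700 was 2.26. Os02g0786900, also annotated as a PR-1a precursor, fell by 2.39 on the log2 scale after short exposure (SD 0.14, adjusted p = 4.86e-05) and rose to 1.82 ± 0.34 after 24 h (adjusted p = 1.79e-04). Its ratios were -2.30, -2.33 and -2.55 and then 1.43, 2.00 and 2.03, with no overlap.

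The 3 thaumatin-type loci, a PR class that acts on fungal membranes, were all up after short exposure. Os03g0663500 had 2.52 ± 0.45 and then 3.45 ± 0.66 (adjusted p = 3.27e-04 and 2.11e-04). Os03g0244200 went from 2.11 ± 0.39 (adjusted p = 7.72e-05) to 0.60 ± 0.08, and Os12g0569300 from 1.94 ± 0.20 (adjusted p = 3.55e-05) to 0.93 ± 0.03, both under 2-fold after 24 h and both lower than after short exposure (adjusted p of the difference 0.0016 and 0.0013). Thus 2 of the 3 had their larger response early, the reverse of the order in PR1a. A further PR10 locus outside the cluster, Os03g0300400, annotated JIOsPR10, was picked after its values were seen. It had 1.96 ± 0.18 after short exposure (n = 3, adjusted p = 7.03e-05) and 1.47 ± 0.15 after 24 h (n = 2, adjusted p = 4.03e-04), with the spot of long replicate 3 left out as an outlier.

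Enzymes that degrade fungal walls, the other large PR classes, gave the following counts. Of 15 chitinases in the study's list, drawn like the one above from these arrays, 13 were called up and 0 down after short exposure and 10 up and 0 down after 24 h, with medians of 2.23 and 1.37. Os10g0416500, annotated chitinase 1 precursor, had 3.45 ± 0.52 and 5.81 ± 1.51 (adjusted p = 0.0014 and 3.10e-04; 4.97 after 24 h without long replicate 3), and Os10g0542900 had 2.61 ± 0.35 and 3.67 ± 0.57 (adjusted p = 1.57e-04 and 1.24e-04). Os11g0701800, a class III chitinase homologue whose control channel never rose well above background, was at least 8.59-fold higher after short exposure and at least 3.01-fold higher after 24 h. The bounds themselves were not tested, and limma on the unbounded ratios gave adjusted p = 1.19e-04 and 0.0012. In the glycoside hydrolase 17 family, which holds β-1,3-glucanases and was not chosen on response, 10 of 51 tested genes were called up and 5 down after short exposure, and 13 up and 2 down after 24 h, with medians of 0.20 and 0.38. Called up were thus 19.6% and 25.5% of the family, against 11.6% and 9.02% of all genes. Of all genes, 8.1% and 6.02% were called down. The 3 with the largest called ratios at either exposure, all after 24 h, were Os01g0941400, Os01g0944500 and Os01g0940700, which had means of 2.27 to 2.47 after short exposure and 4.34 to 4.89 after 24 h, and their long control signals ran from 133 to 1064, from 244 to 1967 and from 162 to 1542. Without long replicate 3 their 24 h means were 3.98, 3.86 and 3.45.

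In the family of glycoside hydrolases 18, chitinase-like proteins called yieldins in the study, 8 of 13 tested genes were called up and 1 down after short exposure, and 6 up and 1 down after 24 h. The medians were 1.65 and 0.52, and 61.5% and 46.2% were called up, against 11.6% and 9.02% of all genes. Os01g0660200, an acidic class III chitinase precursor, had 2.19 ± 0.81 and 3.24 ± 0.75 (adjusted p = 0.0020 and 5.94e-04). Os06g0356800 rose after short exposure (2.51 ± 0.38, adjusted p = 9.04e-05) and had 0.42 ± 0.36 after 24 h (adjusted p = 0.078). For Os08g0519300 no control signal was well above background. After short exposure its Hg signal was well above background on 2 of 3 arrays, so no bound is given. After 24 h it was so on 3 arrays, and the Hg level was at least 2.44-fold higher. Limma on its unbounded ratios gave adjusted p = 7.41e-04 and 0.0059.

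Jasmonate, a hormone that induces PR genes in rice, was represented by 38 loci, of which 28 were tested. After short exposure 17 were called up and 0 down, and after 24 h 5 up and 0 down, with medians of 1.1 and 0.25. Called up were 60.7% and 17.9%, against 11.6% and 9.02% of all genes. The 3 genes named next were picked as called with the largest ratios, so their p-values are descriptions. Os10g0392400, annotated as a ZIM domain protein, the class of jasmonate repressors, had 3.93 ± 0.82 and then 0.75 ± 0.22 (adjusted p = 9.02e-05 and 0.052). Os08g0143600, annotated as a lipase, had 5.50 ± 0.56 after short exposure (adjusted p = 3.30e-05) with a control signal well above background on 1 of 3 arrays, and was at least 6.98-fold higher after 24 h. The lipoxygenase gene Os08g0508800, an early step of jasmonate synthesis, was at least 9.71-fold higher after short exposure. After 24 h the Hg signal was well above background on 1 array only, so no bound is given, and no call was made. Limma on its unbounded ratios gave adjusted p = 4.38e-04 and 0.076. The early rise in these genes stood beside a PR1a ratio near 0 and mean ratios of 2.99, 3.46, 1.21 and -1.34 for the 4 PR10 loci in the same arrays, the last 2 not called.

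From the study's list, drawn from these arrays, 2 regulators of PR genes were picked by locus. They do not stand for all regulators in it. Os01g0194300, annotated NPR1-like, a class of salicylic acid co-activators, had 2.07 ± 0.38 after short exposure (adjusted p = 7.68e-05) and 0.40 ± 0.06 after 24 h. Os05g0322900, annotated WRKY transcription factor 45, had 1.89 ± 0.20 (n = 2, with short replicate 1 left out as an outlier spot, adjusted p = 5.41e-04) and 2.17 ± 0.38 (n = 3, adjusted p = 3.10e-04).

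**Figure D5:**
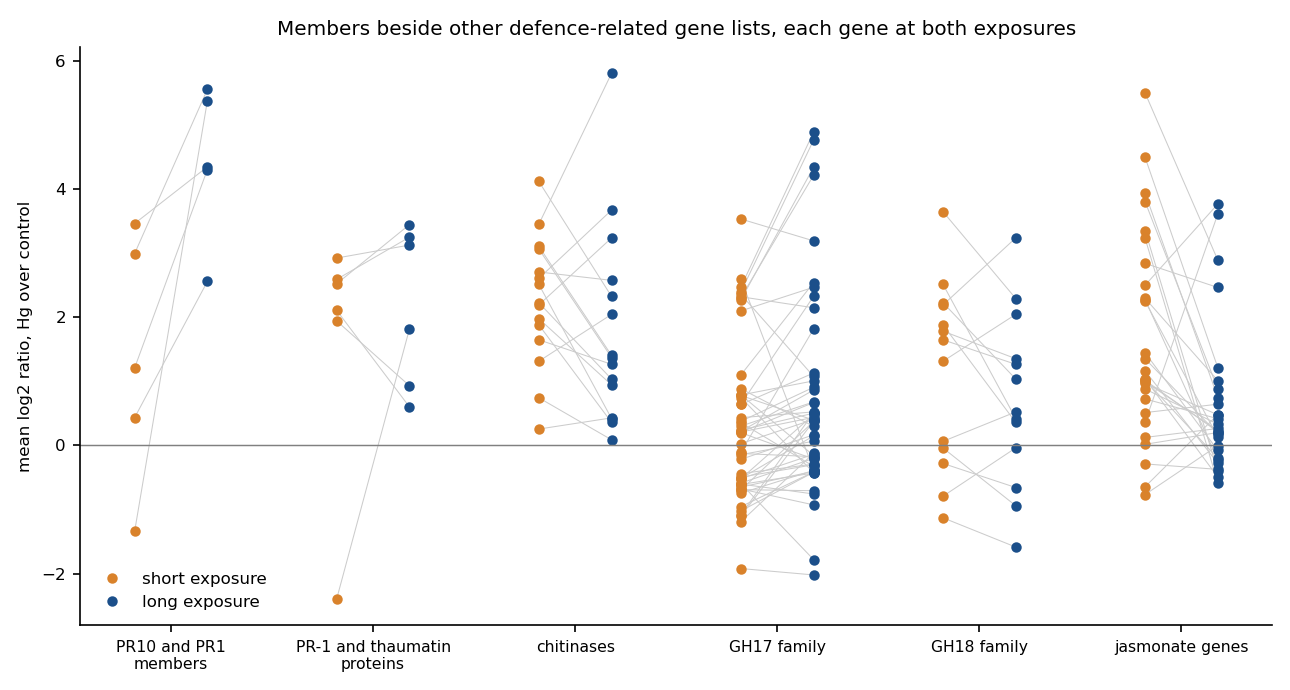
Mean log2 ratio of Hg over control for each tested gene (points) of the members and 5 other lists, short exposure in orange and long exposure in blue, with a grey line joining the same gene. All 5 tested members lie higher after long exposure, as do 4 of 6 PR-1 and thaumatin proteins and 35 of 51 genes of glycoside hydrolase family 17. Lower after long exposure are 10 of 15 chitinases, 9 of 13 genes of family 18 and 21 of 28 jasmonate genes.

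The genes whose 6 log2 ratios lay nearest to those of a member, by root mean square difference over the 6 arrays, were given by the same measure for each. Nearest to Os12g0555000 were Os12g0555300 (0.34), the cytochrome P450 gene Os02g0569900 (0.46) and the chitinase Os10g0416500 (0.49). Nearest to Os12g0555200 were the pepsin family peptidase Os10g0538200 (0.48), Os03g0812400 (0.50) and another peptidase of that family, Os10g0537800 (0.57). Os07g0129200 had the closest match of all, the peroxidase gene Os06g0274800 (0.13), followed by Os11g0559600 (0.22) and Os07g0600200 (0.24). Os12g0555500 was nearest to Os01g0522100 (0.65), Os06g0591400 (0.74) and the β-1,3-glucanase-like Os07g0539900 (1.04). Os12g0555100 had no close match, with 1.14 for Os06g0493100, 1.54 for Os10g0569800 and 1.76 for Os10g0442300.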

How the data were processed

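The scanner files were made by the authors with Agilent Feature Extraction 10.7.1.1, which subtracted background and normalized the dyes (linear and lowess). Per the file headers they hold a log10 ratio of Cy5 over Cy3 and processed intensity values for each channel. The log2 values of the deposited series table equalled the log2 ratio of the processed signals within 0.01 for 99.998% of values of the 41906 probes in both, so that scale and direction are known, and columns were not centred (medians -0.15 to 0.00).

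Log10 ratios were multiplied by 3.32. Outlier spots (72 to 1185 per array) were left out, spots of a probe were averaged, and probes under a processed signal of 100 in all channels and arrays were removed, as in the methods. This left 31325 probes and 21843 genes. Ratios of all 6 arrays were fitted by exposure with limma 3.58.1 in R 4.3.3 and adjusted by Benjamini-Hochberg over all genes, calling genes at adjusted p under 0.05 and 2-fold or more. Confidence intervals are from the same fit. Control levels were processed signals after Aquantile. Where a control was not well above background, "at least" folds use the higher of its own level and the lowest detected level per array. The fits were checked on simulated data. The background alternative used median signals with an offset of 50, since mean signals were not in the columns used.

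Members and lists were chosen with earlier results of these data known. Named list genes were those annotated as PR-1 or thaumatin, and per other list at most the 3 called genes with the largest mean ratio; Os03g0300400, Os12g0555600 and Os01g0381900 fall outside that rule and were named after their values were seen. The copies of the glycoside hydrolase tables used here are shortened. Whether both exposures share control RNA is not given in the sources used here. No probe sequence was used here. The number of arrays limits the precision.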

Additional observations from a re-analysis of the deposited data

Results flagged for a closer look

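Os12g0555100 was negative on all 3 short arrays and positive on all 3 long arrays, a gap of 6.72 on the log2 scale. As this locus was chosen for its response, the difference was not tested independently, and short Hg signals were mostly not well above background. On short replicate 3 neither channel was well above background, so the sign there is not known. The locus had 1 probe only.

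Among the named genes of the other lists, the difference of the log2 ratio, long minus short, was called by limma for 15. Of these, a larger ratio after 24 h was seen for 4 PR or neighbouring loci: Os02g0786900 by 4.21 with the sign turned, Os07g0129300 by 4.81, Os12g0555300 by 2.90 and Os07g0127100 by 2.29. The same held for 2 chitinases, Os10g0416500 by 2.36 and Os10g0542900 by 1.07. The ratio was smaller after 24 h for the thaumatin-type Os03g0244200 (-1.51) and Os12g0569300 (-1.01), for Os12g0554500 (-1.1), for the chitinase homologues Os11g0701800 (-1.80) and Os06g0356800 (-2.09), for the jasmonate genes Os08g0143600 (-2.61), Os08g0508800 (-3.28) and Os10g0392400 (-3.19), and for the NPR1-like Os01g0194300 (-1.66). Slide and exposure time cannot be told apart in any of these.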

How the results depend on the processing

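Counts of called members were 2 after short and 5 after long exposure in nearly all settings. The methods' t-test with adjustment called 0 and 2 of them (2 and 3 at an unadjusted p under 0.05 with 2-fold), and fitting each exposure on its own called 4 after short exposure, Os12g0555500 up and Os12g0555100 down added. Over all genes, the t-test called 939 up and 511 down after short and 910 up and 809 down after long exposure, against 2530, 1767, 1971 and 1315 with limma. Normexp background correction with loess called 442 and 532 down and moved the median ratio by 0.15 and 0.07. Without the fold threshold 6030 up and 8928 down were called after short exposure, 6238 up and 7682 down after long, and 10931 differences against 4225. Without 1 array at a time, called members stayed at 2, 5 and 0 (control level), while called differences were 3 to 4; genes called ranged from 2364 to 2632 up and 1520 to 1980 down after short, 1749 to 2177 up and 1195 to 1535 down after long exposure, and 3930 to 4337 differences.

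Normexp reduced the ratios of the dimmest members, Os12g0555100 to 3.84 after 24 h and to -0.42 after short exposure, and Os12g0555200 to 2.44 after short exposure. The difference for Os12g0555200 was called with normexp (1.06) and with scaling between arrays (1.48). Os07g0127500 had a difference of 0.20, which reversed to -1.20 and was called without long replicate 3 and was 1.01 without long replicate 2. The chitinases Os10g0416500 and Os10g0542900 and Os07g0127100 lost their called differences in several settings. For Os07g0127500 the short call was lost without short replicate 1 or 3, and for the 3 glucanases without short replicate 1.

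Both exposures have replicate numbers 1 to 3. Deviations of same-numbered arrays correlated at -0.23, 0.02 and -0.18, and those of differently numbered arrays at -0.08 to 0.22. These values gave no sign of pairing by number, but with 3 arrays per exposure they cannot exclude it. With the replicate block 2, 5 and 3 members were called, as without it. The slide as a random block (correlation 0.08) also left these counts in place.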
